A study of Mus musculus with 12 samples.

Results

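Endothelial cells sorted from the epididymal fat pad were compared with endothelial cells sorted from the mesentery in mice kept on normal chow, by RNA sequencing of 3 libraries per tissue. The members of the comparison are the 22145 genes, of 27825 listed, whose mean normalized read count over these 6 libraries was at least 10. The 6 libraries are a part of the 12 in the series. All mice were male and carried ROSA26-eYFP+/+ Cdh5-CreERT2+. The second allele is a Cre recombinase that tamoxifen activates under the promoter of the endothelial cadherin gene Cdh5 and that switches on a yellow fluorescent protein. The labels state that tamoxifen chow was given for 2 weeks from 6 weeks of age in every group. It was followed by 12 to 13 weeks of chow with 5.8% fat in the groups compared here, or of a diet with 60% fat in the other groups. Tissue of 6 mice was combined in each library, the dissociation contained actinomycin D, an inhibitor of transcription, red cells were lysed, and YFP-positive cells were sorted by flow cytometry. The protocol speaks of 2 independent replicates while the titles give 3 letters (A, B and C) per group, and the column names carry the numbers 50, 51 and 87 in both tissues without saying what they stand for. The p-values below therefore measure the spread between these libraries, which each average over several animals.

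Blood vessels of different organs share an endothelial programme and differ in a second layer of genes set by where the vessel lies and what it exchanges. Gut and mesenteric endothelium descends from splanchnic mesoderm, where the transcription factors Nkx2-3 and Foxf1 act, and intestinal and glandular capillaries are often fenestrated, with pores spanned by a diaphragm built from Plvap. Capillaries of fat and muscle have a continuous wall rich in caveolae and take up fatty acids released by lipoprotein lipase, through Gpihbp1, Cd36 and Fabp4. The comparison asks which of these programmes set the 2 vascular beds apart on a normal diet.

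Read numbers recovered per library ran from 8348897 to 19318331. The first principal component of the 6 libraries, with 56.6% of the variance, ran from mesentery C and epididymal C at one end to epididymal A and B at the other. The second, with 25.3%, placed all 3 epididymal libraries beyond all 3 of mesentery. Replicate libraries of a tissue correlated with r between 0.73 and 0.959 on the log2 scale. Y-linked Ddx3y was read at 813 to 1167 normalized counts in all 6, as the label male implies. Mesentery C stood apart from mesentery A and B in genes of high endothelial venules and lymphatics, with Madcam1 at 31.9, 31.4 and 2003 and Glycam1 at 80.8, 107 and 2006 in mesentery A, B and C. Mesentery A had the highest share of reads from the 13 mitochondrially encoded protein genes, with 18.7%, against 4.87% at the lowest in mesentery and 2.23% to 3.32% in epididymal libraries. Olfactory and vomeronasal receptor genes took 3073 CPM (counts scaled to a common library total) in mesentery C and 1932 CPM in epididymal C, against 103 to 939 CPM in the other 4 chow libraries, and their part in the results was not tested. Epididymal B held more macrophage reads, with Lyz2 at 5582, 68477 and 3612 in the 3 epididymal libraries.

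At an adjusted p under 0.05, 2101 genes or 9.49% of those tested differed, of which 1222 (5.52%) were higher and 879 (3.97%) lower in epididymal endothelium. In 1752 of them the difference was 2-fold or more, and for every one of the 2101 the 3 libraries of one tissue lay wholly above those of the other. Over all genes the groups did not overlap with epididymal higher in 3491 (15.8%) and with epididymal lower in 2863 (12.9%), and the median log2 change, epididymal minus mesentery, was -0.11. Of the 156 called genes given with values in the text, 43 passed under all 25 alternative settings and all 156 kept their direction. In the limma fits that leave out libraries the direction could not change, because the groups of these genes did not overlap. How many genes passed depended on the libraries: 938 did without mesentery A, 1316 without mesentery B, 3468 without mesentery C, 784 without epididymal A and 711 without epididymal B. The main fit did not pair libraries by the number shared between tissues. With that number as a replicate block, 2918 genes passed. So did 10 of the 50 genes given in the text with values and not called, which are named under the dependence on processing. Among those called, 58.2% were higher in epididymal, 69.2% after scaling by trimmed means of the recovered reads, and 93.1% after scaling on the median of 28 pan-endothelial genes, which raised the median of all genes by 0.61 on the log2 scale. Every one of the 2101 genes kept its direction under each of these scalings. Because the libraries are bulk samples, fewer cells of a type and less RNA per cell cannot be told apart in any of the values that follow.

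Among transcription factors that pattern organs, the lowest in epididymal endothelium was Nkx2-3, a homeobox factor of gut and splenic vessels. Nkx2-3 was read at 992, 1187 and 1094 normalized counts in mesentery A, B and C and at 0 in all 3 epididymal libraries, where a limit of 3 reads per library makes it at least 408-fold lower. Foxf1, a forkhead factor of splanchnic mesoderm, was at 1156, 1656 and 1421 in mesentery and 78.3, 26.9 and 23.5 in epididymal libraries (log2 change -5.21, SE 0.43, adjusted p = 0.00017). Tlx1, a homeobox factor required for the spleen, had 117, 173 and 35.2 against 5.48, 0 and 1.02 (log2 change -5.26, SE 1.14, adjusted p = 0.021). In none of the 3 did a library of one tissue reach the other. Meis2 (-2.39, adjusted p = 0.0011), Meox1 (-2.08, adjusted p = 0.00043) and Irx3 (-1.58, adjusted p = 0.016) were also lower in epididymal libraries. Meox1 kept 899.9, 599 and 635 against 2881, 3384 and 2674.

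In the other direction, Osr2, an odd-skipped zinc finger factor, had 14.8, 6.27 and 0 in mesentery and 3649, 1079.9 and 345 in epididymal libraries (log2 change 7.83, SE 1.08, adjusted p = 0.0024). Tcf21, a basic helix-loop-helix factor of visceral mesenchyme, had 7.97, 2.69 and 14.1 against 2255, 914 and 429 (log2 change 6.92, SE 0.69, adjusted p = 0.00042). Osr1 had 25.1, 24.2 and 18.3 against 572, 278 and 223 (log2 change 3.82, SE 0.45, adjusted p = 0.001). Mesentery libraries had low counts of these 3 genes, and among epididymal libraries A was the highest and C the lowest. Pdgfra, a receptor that marks fibroblasts, followed that order with 1013, 512 and 178, against 31.9, 18.8 and 81.7 in mesentery. The order was not particular to fibroblast genes. Summed smooth muscle genes had it, with 0.143%, 0.089% and 0.0613% of reads in epididymal A, B and C. So did lymphatic genes, with 0.262%, 0.23% and 0.191%. The fibroblast list as a whole had 9 of 14 genes higher and none lower (3 without epididymal A or without epididymal B). It made up 0.167% to 0.404% of epididymal and 0.0396% to 0.0975% of mesentery reads, with none of its genes at 0 in any library. The mesothelial list had 6 of 13 tested genes higher (3 without epididymal A and 2 without epididymal B) and took 0.0324% to 0.041% against 0.00882% to 0.0122%, Wt1 being at 0 in all 3 mesentery libraries, Lrrn4 in A and B, Muc16 in B and Msln in C. The part of fibroblast and mesothelial RNA in the Osr2, Tcf21 and Osr1 values was not tested.

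Meox2, a homeobox factor of fat and muscle capillaries, was spread more evenly over the epididymal libraries, with 3829, 3319.7 and 2904 against 351, 461 and 804 in mesentery (log2 change 2.71, SE 0.29, adjusted p = 0.00058), so that the related factors Meox1 and Meox2 differed between the tissues in opposite directions. Gata3 (2.49, adjusted p = 0.048), Nr2f1 (2.31, adjusted p = 0.024) and the venous factor Nr2f2 (1.33, adjusted p = 0.0497) were higher in epididymal endothelium as well. Of the 29 positional factors tested, 7 were higher and 6 lower, with a median log2 change of 0.20 beside -0.11 over all genes. The counts were 4 higher and 4 lower without mesentery A or epididymal B, and 4 higher and 5 lower without epididymal A. Gata2, a factor of all endothelium, did not pass (-0.78, adjusted p = 0.1), and neither did Gata6 (1.67, adjusted p = 0.13) or Tbx3 (-0.34, adjusted p = 0.55). In limma with the shared number as a replicate block Gata2 passed (adjusted p = 0.02), while Gata6 (adjusted p = 0.071) and Tbx3 (adjusted p = 0.35) did not.

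The 250 bases before the RefSeq transcription start are shown for 2 factors that were near absent from epididymal endothelium and 2 that were high in it, as called positional factors whose windows the promoter table holds. They come from RefSeq on GRCm38.p6, an older build than the mm39 named in the submitters' processing notes. The windows lie at chr19:43612075-43612324 (plus strand) for Nkx2-3, chr19:45150465-45150714 (plus strand) for Tlx1, chr10:22820144-22820393 (minus strand) for Tcf21 and chr12:37108290-37108539 (plus strand) for Meox2. Each is written 5′ to 3′ in the direction of the gene, with matches to any of 6 short motifs, read on both strands, in capitals.
Nkx2-3: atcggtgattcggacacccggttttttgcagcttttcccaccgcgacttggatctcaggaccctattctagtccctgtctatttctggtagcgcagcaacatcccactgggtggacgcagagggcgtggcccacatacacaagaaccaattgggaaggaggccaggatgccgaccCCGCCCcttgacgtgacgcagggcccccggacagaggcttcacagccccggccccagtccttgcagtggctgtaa
Tlx1: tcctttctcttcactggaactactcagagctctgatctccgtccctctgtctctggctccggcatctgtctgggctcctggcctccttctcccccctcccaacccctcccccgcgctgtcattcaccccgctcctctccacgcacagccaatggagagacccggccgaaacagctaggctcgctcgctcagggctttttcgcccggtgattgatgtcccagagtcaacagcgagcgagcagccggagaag
Tcf21: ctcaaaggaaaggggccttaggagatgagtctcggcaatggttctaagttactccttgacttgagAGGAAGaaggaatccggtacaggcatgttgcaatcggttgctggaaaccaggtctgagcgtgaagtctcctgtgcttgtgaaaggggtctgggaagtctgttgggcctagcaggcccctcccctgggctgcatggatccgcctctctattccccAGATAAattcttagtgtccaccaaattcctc
Meox2: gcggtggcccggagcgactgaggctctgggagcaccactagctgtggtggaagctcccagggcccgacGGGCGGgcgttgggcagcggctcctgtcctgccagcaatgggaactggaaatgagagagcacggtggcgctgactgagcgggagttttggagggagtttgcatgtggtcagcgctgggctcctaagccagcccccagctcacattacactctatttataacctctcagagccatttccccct
The GC box GGGCGG occurs in the windows of Nkx2-3 (on the minus strand, bases 75 to 70 before the start) and Meox2 (bases 182 to 177), as it does in 32.7% of 32851 promoter windows of the same length. The GATA motif AGATAA (bases 31 to 26) and the ETS motif AGGAAG (bases 185 to 180) occur in the Tcf21 window, against 9.99% and 29.5% of all windows. The forkhead motif TAAACA, found in 12% of windows, the NKX2 motif CAAGTG, found in 11.6%, and the homeobox motif TAATTA, found in 4.84%, are in none of the 4, and the Tlx1 window holds none of the 6 motifs. The matches do not overlap one another.

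Hox genes, the clustered homeobox factors that record position along the body axis, were called in both directions. Among HoxC genes, Hoxc6 had 4.55, 12.5 and 7.04 against 454, 256 and 144 (log2 change 4.93, SE 0.63, adjusted p = 0.0016). Hoxc5 had 10.2, 6.27 and 40.8 against 406, 248 and 157 (log2 change 4.06, SE 0.70, adjusted p = 0.0072). Hoxc4 (3.92, adjusted p = 0.031) and Hoxc8 (3.60, adjusted p = 0.023) were higher too, and Hoxc9 missed the threshold (3.62, adjusted p = 0.082) with groups that did not overlap. Hoxc9 passed in limma with the shared number as a replicate block (adjusted p = 0.036). Hoxb4 (-1.45, adjusted p = 0.043) and Hoxb6, with 474, 411 and 367 against 186, 204 and 169.5 (log2 change -1.16, SE 0.23, adjusted p = 0.014), were lower in epididymal libraries, whereas Hoxb7 (0.00, adjusted p = 0.99) and Hoxb9 (0.03, adjusted p = 0.96) differed by less than the spread between libraries. Hoxa7 (1.58, adjusted p = 0.01) and Hoxd9 (1.25, adjusted p = 0.031) were higher. In all, 6 of 26 tested Hox genes rose and 2 fell, with a median of 0.44. Leaving out single libraries gave 2 higher and 0 lower without mesentery A, 4 higher and 1 lower without mesentery B, 7 higher and 4 lower without mesentery C, and 1 higher and 0 lower without epididymal A or epididymal B. The 2 that fell did not pass after scaling on pan-endothelial genes, when 10 rose, and the 4 HoxC genes share with Tcf21 the highest value in epididymal A, so the fibroblast values given above stand beside them too.

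The general endothelial genes were read at high levels in both tissues, as the label of sorted endothelial cells implies, but several differed. Cdh5, whose promoter drove the Cre, had 4046, 4822 and 2657 in mesentery and 3177, 4456 and 3778 in epididymal libraries, and the groups overlapped (log2 change 0.02, SE 0.25, adjusted p = 0.98). Erg (0.13, adjusted p = 0.76), Nos3 (0.17, adjusted p = 0.64), Esam (0.13, adjusted p = 0.8) and S1pr1 (0.11, adjusted p = 0.79) also showed no difference beyond the spread. Pecam1, the adhesion molecule CD31, was lower in epididymal libraries with 6199, 7472 and 6187 against 12596, 12974 and 11417 (log2 change -0.90, SE 0.20, adjusted p = 0.022). Clec14a, a lectin-like receptor of vessels, fell furthest in the list, from 10292, 11398 and 7090.3 to 1870.2, 1996 and 1505 (log2 change -2.40, SE 0.23, adjusted p = 0.00035). Sox18 (-1.74, adjusted p = 0.00084), a factor of vessel identity, Emcn (-1.72, adjusted p = 0.0032), a sialomucin of veins and capillaries, and She (-0.96, adjusted p = 0.0089) were lower in every epididymal library as well.

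Cldn5, the principal claudin of endothelial tight junctions, went the other way by a wide margin. It had 555, 722 and 1383 normalized counts in mesentery and 15133, 20509 and 12312 in epididymal libraries, whose lowest value lay above the highest of mesentery (log2 change 4.25, SE 0.33, adjusted p = 0.00013). Of the 28 pan-endothelial genes, 11 were lower and 1 higher, with a median of -0.58. Scaling on the list's own median, which sets that list level by construction, left 7 lower and called 9 higher, and the median relative to all genes was -0.48 before and -0.44 after it. Cdh5, Erg, Nos3, Esam and S1pr1 were among the 9 higher under that scaling. Pecam1 and She were among the genes that no longer passed as lower. With single libraries left out the list as deposited had 1 higher and 5 lower without mesentery A or epididymal B, and 1 higher and 6 lower without epididymal A. The list made up 1.49% to 1.75% of mesentery and 1.01% to 1.10% of epididymal reads. The plot of 17 genes by library sets these side by side with the regulators and the exchange genes.

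**Figure D1:**
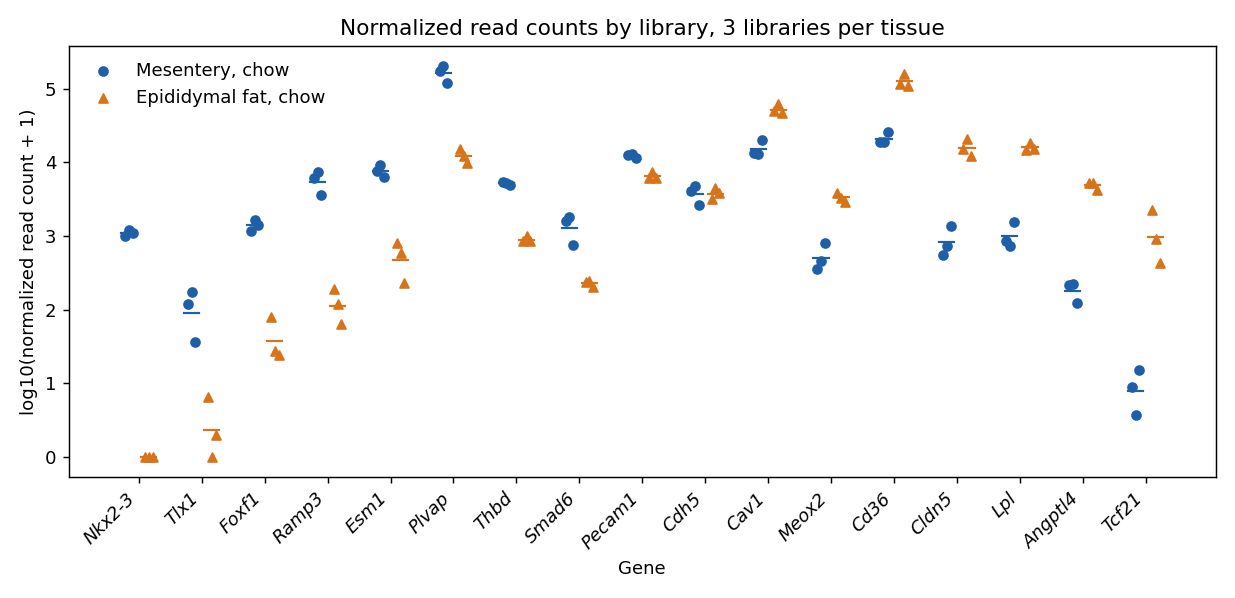
Normalized read counts of 17 genes on a log10(count + 1) scale in the 3 mesentery (circles) and 3 epididymal (triangles) chow libraries, with a short line at the mean of the log values. Nkx2-3 is at 0 in all epididymal libraries, Cdh5 overlaps between the tissues, and Cldn5, Lpl, Angptl4 and Tcf21 lie higher in all 3 epididymal libraries.

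Of 10 genes of caveolae and fenestrae, 5 were higher and 2 lower in epididymal endothelium. Plvap, the diaphragm protein of fenestrae and of stomatal openings, fell from 175846, 205657 and 119755 in mesentery to 15128, 12340.3 and 9889.7 in epididymal libraries (log2 change -3.73, SE 0.34, adjusted p = 0.00028). Ehd4, an endocytic ATPase, fell from 7786, 8277 and 8066 to 2047, 2473 and 1767 (log2 change -1.95, SE 0.19, adjusted p = 0.00038). Among the coat proteins of caveolae, Cav1 had 13427, 13158 and 20344 against 49209, 61749 and 46056 (log2 change 1.76, SE 0.29, adjusted p = 0.0061). Cav2 had 4945, 5089 and 6531 against 14456, 16130.0 and 12687 (log2 change 1.39, SE 0.21, adjusted p = 0.0043). Cavin1 (0.90, adjusted p = 0.014), which stabilises the coat, Ehd2 (0.80, adjusted p = 0.033), which sits at the caveolar neck, and Pacsin3 (2.07, adjusted p = 0.0065), which bends membranes, were higher too. Cavin2 did not pass (0.55, adjusted p = 0.21) although its groups did not overlap, and Cavin3 overlapped (0.33, adjusted p = 0.42). Plvap and Ehd4 passed under every scaling. Pancreatic acinar genes took 1.21% to 4.63% of mesentery reads, and the part of pancreatic vessels in the Plvap and Ehd4 values was not tested. The counts became 2 higher and 2 lower without mesentery A, 3 higher and 2 lower without epididymal A, and 1 higher and 2 lower without epididymal B.

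Genes of lipid uptake were higher in epididymal endothelium. Cd36, the fatty acid translocase, had 19126, 18648 and 25639.6 in mesentery and 113848, 159288 and 109109 in epididymal libraries (log2 change 2.59, SE 0.33, adjusted p = 0.0016). Lpl, lipoprotein lipase, which frees fatty acids from circulating triglyceride, had 855, 739 and 1563 against 14614, 18368 and 15184 (log2 change 4.0, SE 0.28, adjusted p = 8.8e-05). Angptl4, a secreted inhibitor of that lipase and a target of PPAR receptors, had 215, 222 and 122 against 5184, 5296 and 4267 (log2 change 4.75, SE 0.25, adjusted p = 2.2e-05). In each of the 3 the lowest epididymal library stood several-fold above the highest mesentery library. Timp4, an inhibitor of metalloproteinases found in fat capillaries, rose from 1356, 1400.5 and 2051 to 48995, 33692 and 33057 (log2 change 4.59, SE 0.25, adjusted p = 2.3e-05). Aqp7, the channel for glycerol, rose from 1350.5, 1376 and 2557 to 15734, 17643 and 12615 (log2 change 3.17, SE 0.28, adjusted p = 0.00022). Pparg, the nuclear receptor that governs fatty acid uptake genes, had 887, 899 and 935 against 4047, 2953 and 3879.7 (log2 change 1.99, SE 0.18, adjusted p = 0.0003).

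Further along the path of a fatty acid, the transporter Slc27a1 (2.19, adjusted p = 0.0047), the acyl-CoA synthetase Acsl1 (1.49, adjusted p = 0.019), the droplet coat Plin2 (1.61, adjusted p = 0.0012) and the triglyceride lipase Pnpla2 (1.91, adjusted p = 0.0013) were higher in epididymal libraries. The mitochondrial beta-oxidation enzymes Acadm (0.98, adjusted p = 0.013), Acadl (0.86, adjusted p = 0.028) and Hadh (0.77, adjusted p = 0.032) were higher by smaller amounts, while Cpt1a, which admits fatty acids to the mitochondrion, overlapped (0.20, adjusted p = 0.71). Fabp4, the fatty acid binding protein, had 141724, 129379 and 112419 against 299542, 506767 and 456785 and missed the threshold (1.69, adjusted p = 0.076) despite groups that did not overlap. Gpihbp1 (1.06, adjusted p = 0.082), which holds lipoprotein lipase on the capillary wall, and Fabp5 (1.10, adjusted p = 0.063) did likewise. By edgeR on the recovered reads Fabp4 passed (adjusted p = 0.032). After rescaling all columns to the same total, Fabp4 (adjusted p = 0.036) and Gpihbp1 (adjusted p = 0.027) passed in limma. Fabp5 passed in limma with the shared number as a replicate block (adjusted p = 0.023), whereas Fabp4 (adjusted p = 0.07) and Gpihbp1 (adjusted p = 0.056) did not. Altogether 12 of 21 fatty acid handling genes rose and none fell, with a median of 1.10, and 6 of 14 capillary genes rose and none fell, with a median of 1.08. The lists share members, and the calls of Cd36, Lpl and Aqp7 are counted in both. Leaving out single libraries left 7 higher and 0 lower without epididymal B among fatty acid genes. Among other genes of the capillary list, Car4 (-0.43, adjusted p = 0.46), Rgcc (-0.45, adjusted p = 0.49) and Tcf15 (-0.06, adjusted p = 0.92) did not differ beyond their spread.

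Several of these genes are also abundant in adipocytes, and adipocyte markers moved with them. Of the 16 markers 13 were higher in epididymal libraries and none lower, and together they took 1.30% to 1.48% of epididymal and 0.108% to 0.202% of mesentery reads. Adipoq, the hormone adiponectin, had 502, 398 and 808 against 6581, 7465 and 5585 (log2 change 3.57, SE 0.26, adjusted p = 0.00011). Cfd, adipsin, had 2775, 2256 and 3556 against 50724, 58630.5 and 41784 (log2 change 4.15, SE 0.25, adjusted p = 3.9e-05). Adrb3 and Pck1 were at 0 in mesentery C, and no marker was at 0 in an epididymal library. Lipe, hormone-sensitive lipase, overlapped between the tissues (-0.03, adjusted p = 0.95), as did Acvr1c (0.98, adjusted p = 0.51). The part of adipocyte RNA in the fatty acid handling values was not tested.

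**Figure D2:**
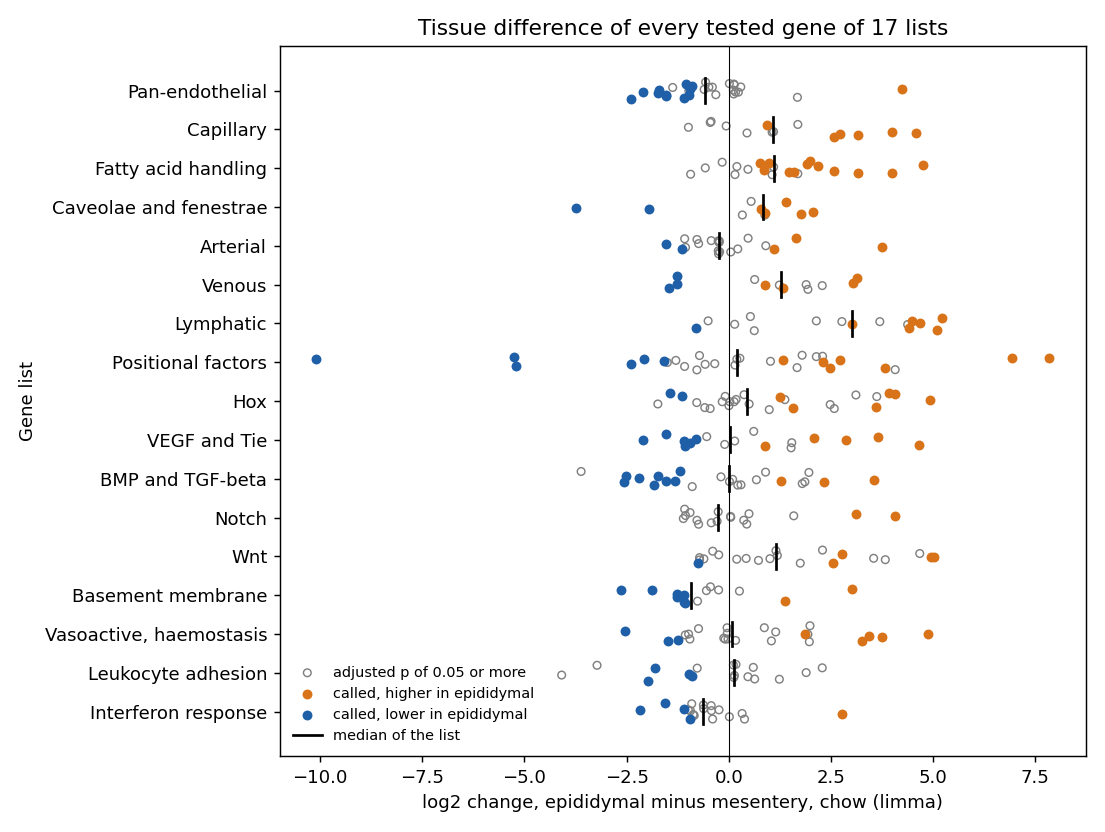
Each point is 1 tested gene, placed by its log2 change (epididymal minus mesentery, chow) in the row of its list, filled where the adjusted p was under 0.05, with a vertical line at the median of the list. Fatty acid handling has 12 filled points to the right and none to the left, and the pan-endothelial row has 11 to the left and only Cldn5 to the right.

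Arterial and venous markers were called in both directions. Among arterial genes Efnb2, the arterial ephrin, was lower in epididymal endothelium (-1.53, adjusted p = 0.038), with 2269, 2769.6 and 902 against 569, 804 and 519, and so was Alpl (-1.14, adjusted p = 0.037). Gja5, the connexin of large arteries, rose from 292, 243 and 489 to 1447, 947 and 777 (log2 change 1.64, SE 0.32, adjusted p = 0.012). Fbln5, an elastic fibre protein, rose (1.11, adjusted p = 0.0081). Gkn3 had 23.9, 73.5 and 145 against 868, 929.6 and 815 (log2 change 3.75, SE 0.54, adjusted p = 0.003). Sox17 (-0.24, adjusted p = 0.62), Dll4 (-0.26, adjusted p = 0.58) and Gja4 (-0.26, adjusted p = 0.56) overlapped. Thus 3 of 20 arterial genes rose and 2 fell, with a median of -0.24. Leaving out libraries one by one gave 2 higher and 0 lower without mesentery A or epididymal B, 3 higher and 0 lower without mesentery B or epididymal C, 4 higher and 6 lower without mesentery C, and 2 higher and 1 lower without epididymal A. Efnb2 and Alpl did not pass after scaling by trimmed means.

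Among venous genes, the receptor Ephb4, partner of Efnb2, fell from 2793, 3158 and 1963 to 1053, 1016 and 775 (log2 change -1.46, SE 0.23, adjusted p = 0.0045), and Tmem252 (-1.28, adjusted p = 0.013) and the interleukin receptor Il1r1 (-1.27, adjusted p = 0.0075) were lower. Lrg1, a glycoprotein of venules, had 131, 151 and 1097 against 2631, 2495 and 2304 (log2 change 3.14, SE 0.67, adjusted p = 0.019). Cpe, a carboxypeptidase, had 295, 331 and 964 against 3976, 4217 and 3145 (log2 change 3.04, SE 0.40, adjusted p = 0.0018). Mesentery C held the highest mesentery value of both genes and still lay below every epididymal library. Vwf, the clotting glycoprotein (1.94, adjusted p = 0.061), Vcam1 (1.89, adjusted p = 0.055), Selp (2.29, adjusted p = 0.24) and Ackr1 (1.24, adjusted p = 0.42) were all highest in mesentery C among mesentery libraries and did not pass. In limma with the shared number as a replicate block, Vwf (adjusted p = 0.016) and Vcam1 (adjusted p = 0.026) passed. Selp (adjusted p = 0.083) and Ackr1 (adjusted p = 0.25) did not pass there either. In the list of 12, 4 genes rose and 3 fell with a median of 1.29, the other 2 that rose being Nr2f2 and the apelin receptor Aplnr. It had 1 higher and 3 lower without mesentery A or mesentery B, 8 higher and 3 lower without mesentery C, and 1 higher and 2 lower without epididymal A or epididymal B.

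Lymphatic genes were scarce in mesentery A and B. Lyve1, a hyaluronan receptor of lymphatics that some macrophages share, had 9.11, 34 and 69 against 1425, 1116 and 818 (log2 change 5.23, SE 0.61, adjusted p = 0.00098). Mmrn1 had 17.1, 18.8 and 106 against 1734, 1131 and 779 (log2 change 5.10, SE 0.63, adjusted p = 0.0014). Prox1, the factor that specifies lymphatic fate, was low in both tissues with 14.8, 10.8 and 19.7 against 154, 111 and 118 (log2 change 3.02, SE 0.53, adjusted p = 0.0078). Ccl21a, a chemokine of lymphatics and high endothelial venules, had 322, 497 and 11665 against 33188, 31428 and 20002 (log2 change 4.48, SE 1.10, adjusted p = 0.033), mesentery C standing between the tissues. Ccl21b and Ccl21d gave almost the same value as each other in every library, so the reads of these near-identical copies cannot be assigned with certainty. Nts (4.69, adjusted p = 0.038), the peptide neurotensin, rose from a few counts. Flt4, the receptor for VEGF-C, was lower in epididymal endothelium with 589.7, 522 and 469 against 941, 953 and 848 (log2 change -0.80, SE 0.18, adjusted p = 0.026) and did not pass after scaling by trimmed means. The list thus had 6 of 15 genes higher and 1 lower with a median of 3.02. This became 4 higher and 0 lower without mesentery A, 3 higher and 0 lower without mesentery B, and 2 higher and 0 lower without epididymal A or epididymal B. It took 0.191% to 0.262% of epididymal and 0.0149% to 0.126% of mesentery reads.

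Growth factor receptors of endothelium were lower in epididymal libraries. Flt1 (VEGF receptor 1) had 30275, 33715 and 17039 against 5755, 5738 and 6691 (log2 change -2.10, SE 0.29, adjusted p = 0.0023). Kdr (VEGF receptor 2, which carries most of the proliferative signal) had 24555, 25939 and 11608 against 5655, 7837 and 6794 (log2 change -1.54, SE 0.33, adjusted p = 0.019). The co-receptor Nrp1 (-1.08, adjusted p = 0.017), the angiopoietin receptor Tek (-1.04, adjusted p = 0.011), its partner Tie1 (-0.94, adjusted p = 0.017) and the phosphatase Ptprb (-1.09, adjusted p = 0.025), which restrains Tek, fell as well. The epididymal groups lay below mesentery in all 6, with mesentery C the lowest mesentery library of each. Esm1, a proteoglycan of tip cells, fell from 7621, 9292 and 6337 to 798, 585 and 227 (log2 change -4.01, SE 0.40, adjusted p = 0.00044). The platelet-derived growth factor Pdgfb, which recruits pericytes, also fell (-1.20, adjusted p = 0.039). Both belong to a list of 13 tip-cell genes that was called in both directions, with 4 higher, Pgf and Adm among them, and 6 lower. Its median log2 change was 0.61, and 2 were higher and 2 lower without mesentery A, epididymal A or epididymal B. The pancreatic acinar share of mesentery reads (1.21% to 4.63%) stands beside the receptor and tip-cell values too. The part of pancreatic vessels in them was not tested.

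Among ligands, 4 were higher in epididymal libraries. Pgf, placental growth factor and a ligand of Flt1, had 11.4, 25.1 and 74.6 against 1743, 714 and 321 (log2 change 4.67, SE 0.73, adjusted p = 0.0046). Its epididymal values had the order of Pdgfra, A highest and C lowest, and the part of fibroblast RNA in it was not tested. Vegfb, another Flt1 ligand, had 179, 137 and 70.4 against 553, 586 and 419.7 (log2 change 2.09, SE 0.35, adjusted p = 0.0065). Vegfd (2.87, adjusted p = 0.032) and Angpt4 (3.64, adjusted p = 0.045) rose from low counts. Vegfa overlapped between the tissues (-0.54, adjusted p = 0.51), as did Vegfc (-0.10, adjusted p = 0.87). The apelin receptor Aplnr was higher (0.90, adjusted p = 0.025). In the list of 18, 5 genes rose and 7 fell, with a median of 0.02. Scaling by trimmed means left 5 rising and 3 falling, edgeR on the recovered reads 3 and 5, and scaling on pan-endothelial genes 8 rising and 4 falling. Leaving out a library gave 3 higher and 1 lower without mesentery A, 2 higher and 3 lower without mesentery B, 1 higher and 1 lower without epididymal A or epididymal B, and 3 higher and 6 lower without epididymal C.

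Signalling by bone morphogenetic proteins (BMP) and TGF-beta, which keeps endothelium quiescent through Acvrl1, Eng and Bmpr2 and is fed back by Smad6 and Smad7, had 8 of 23 tested genes lower and 3 higher in epididymal endothelium. The receptor Bmpr2 fell from 3382, 3362 and 1646 to 478, 713 and 572 (log2 change -2.19, SE 0.30, adjusted p = 0.0022). Acvrl1 (the receptor ALK1) fell from 7260.3, 6859 and 5492 to 3101, 2547 and 2244 (log2 change -1.32, SE 0.20, adjusted p = 0.0044). Its co-receptor Eng fell from 8708, 7404 and 5375 to 2002, 2764 and 2542 (log2 change -1.54, SE 0.23, adjusted p = 0.0038). Among called genes the inhibitory Smads had the lowest values of log2 change, and Smad6 fell from 1592, 1825 and 757 to 237, 245 and 201 (log2 change -2.51, SE 0.32, adjusted p = 0.0015). Smad7 fell from 949, 711 and 353 to 95.5, 109 and 107 (log2 change -2.57, SE 0.35, adjusted p = 0.0024). Id1, a direct target of BMP signals, had 18137, 16247 and 10568 against 4856, 3480.4 and 4044 (log2 change -1.84, SE 0.26, adjusted p = 0.0025). Id3 missed the threshold (-0.89, adjusted p = 0.076) with groups that did not overlap, and passed in limma with the shared number as a replicate block (adjusted p = 0.039).

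Tgfb2 (-1.74, adjusted p = 0.0055) and the receptor Tgfbr1 (-1.19, adjusted p = 0.019) were lower, and the receptors Tgfbr2 (0.10, adjusted p = 0.84) and Tgfbr3 (0.30, adjusted p = 0.42) overlapped. Bmp4, a ligand, rose from 59.2, 78.8 and 191 to 1323, 1294 and 868 (log2 change 3.55, SE 0.41, adjusted p = 0.00089). Tgfb3 rose (2.33, adjusted p = 0.0046). The signal carrier Smad1 rose from 1168, 1381 and 1323 to 3775, 3321 and 2479.6 (log2 change 1.29, SE 0.20, adjusted p = 0.0047). The median of the list was 0.02. Scaling on pan-endothelial genes gave 10 rising and 7 falling, and scaling by trimmed means 4 and 8. Whichever library was left out, 7 to 9 genes fell, and 2 to 7 rose, with 7 rising without mesentery C.

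The Notch list held 2 called genes of 17 (11.8%, near the 9.49% of all genes), Notch3 with 19.4, 11.6 and 46.5 against 186, 219.8 and 193 (log2 change 3.12, SE 0.54, adjusted p = 0.0076). The other was its target Heyl, with 5.69, 13.4 and 118 against 465, 344 and 334 (log2 change 4.06, SE 0.89, adjusted p = 0.022). Both are genes of mural cells, and 8 of 9 pericyte markers, Notch3 among them, were higher in epididymal libraries, none lower, at 0.0999% to 0.127% against 0.00526% to 0.0162% of reads, with none at 0. Pdgfrb, the receptor by which pericytes are recruited, had 28.5, 8.96 and 14.1 against 659, 697 and 525 (log2 change 5.25, SE 0.45, adjusted p = 0.0002). Rgs5 had 524, 961 and 1033 against 7262, 11473 and 7002 (log2 change 3.38, SE 0.30, adjusted p = 0.00024). Neither Notch gene passed without epididymal A or without epididymal B. The part of pericyte RNA in the Notch3 and Heyl values was not tested. The endothelial receptors Notch1 (-0.74, adjusted p = 0.19) and Notch4 (-1.06, adjusted p = 0.059) and the target Hey1 (-1.08, adjusted p = 0.052) lay lower in all 3 epididymal libraries and did not pass. In limma with the shared number as a replicate block, Notch4 (adjusted p = 0.008) and Hey1 (adjusted p = 0.0066) passed and Notch1 (adjusted p = 0.16) did not.

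In the Wnt list 4 of 21 tested genes rose and 1 fell, with a median of 1.15. The receptor Fzd4, which carries the norrin signal in endothelium, fell from 2572, 2219 and 2108 to 1396, 1438 and 1276 (log2 change -0.74, SE 0.17, adjusted p = 0.026) and did not pass after scaling by trimmed means. Rspo1, an amplifier of Wnt signals and also one of the mesothelial markers, rose from 46.7, 27.8 and 40.8 to 336, 215 and 158 (log2 change 2.55, SE 0.42, adjusted p = 0.0057). The feedback gene Nkd1 rose (2.78, adjusted p = 0.019). Wnt2, with 1.14, 0 and 2.82 against 227, 68.6 and 14.3 (log2 change 4.95, SE 1.33, adjusted p = 0.048), and Sfrp2, with 2.28, 0.896 and 2.82 against 85.4, 104 and 88.8 (log2 change 5.02, SE 0.88, adjusted p = 0.008), were at or near 0 in mesentery. Wnt2 had its epididymal values in the order of Pdgfra, and the part of fibroblast RNA in it was not tested. The list had 3 higher and 0 lower without mesentery A or mesentery B, 7 higher and 1 lower without mesentery C, and 0 higher and 0 lower without epididymal A or epididymal B.

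The basement membrane, the sheet on which endothelium rests, had 7 of 14 genes lower and 2 higher in epididymal endothelium. Col15a1, a collagen at the junction of basement membrane and matrix, fell from 722, 863 and 614 to 189.5, 103 and 78.6 (log2 change -2.64, SE 0.33, adjusted p = 0.0015). The network collagens Col4a1 (-1.28, adjusted p = 0.014) and Col4a2 (-1.09, adjusted p = 0.048), the proteoglycans Agrn (-1.87, adjusted p = 0.018) and Hspg2 (-1.09, adjusted p = 0.034), Nid2 (-1.26, adjusted p = 0.027) and Lamb1 (-1.06, adjusted p = 0.024) fell with it. Lama3, a laminin chain outside that list, fell from 1551, 1985 and 833 to 65.8, 42.6 and 135 (log2 change -4.22, SE 0.45, adjusted p = 0.00054). Col18a1, whose tail fragment is endostatin, had 34.2, 69 and 107 against 755, 559.5 and 336 (log2 change 3.02, SE 0.45, adjusted p = 0.0038). Sparc, a collagen-binding matrix protein, had 41276, 39561 and 32317 against 88162, 104966 and 99309 (log2 change 1.37, SE 0.32, adjusted p = 0.028). The median was -0.91, while the summed reads of the list, to which Sparc gives most, took 0.698% to 0.873% of epididymal and 0.39% to 0.457% of mesentery reads. The counts were 3 falling and 3 rising after scaling on pan-endothelial genes and 3 falling and 1 rising after scaling by trimmed means. As deposited, they were 1 higher and 1 lower without mesentery A or epididymal B, and 1 higher and 2 lower without mesentery B or epididymal A.

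Genes that set vascular tone and clotting changed one by one. Thbd, thrombomodulin, the anticoagulant receptor for thrombin, had 5483, 5261 and 4878 against 843, 984 and 849.7 (log2 change -2.55, SE 0.17, adjusted p = 6.5e-05), a difference far beyond the narrow spread of both groups. The cyclooxygenases differed in opposite directions: Ptgs1 fell from 2461, 2675 and 2968 to 994, 1234 and 733 (log2 change -1.48, SE 0.22, adjusted p = 0.0035). Ptgs2 had 0, 1.79 and 23.9 against 154, 131 and 86.8 (log2 change 4.88, SE 1.17, adjusted p = 0.03). Prostacyclin synthase Ptgis rose (3.43, adjusted p = 0.0036), as did the potassium channel Kcnn4 (3.76, adjusted p = 0.0012), the adenosine receptor Adora2a (3.27, adjusted p = 0.0038) and the natriuretic clearance receptor Npr3 (1.87, adjusted p = 0.0062). The flow-induced factor Klf4 fell (-1.24, adjusted p = 0.026), Klf2 missed the threshold (-0.98, adjusted p = 0.054), and Edn1 (-0.04, adjusted p = 0.96), Ednrb (-0.09, adjusted p = 0.82) and Plat (-0.02, adjusted p = 0.98) overlapped. Klf2 passed in limma with the shared number as a replicate block (adjusted p = 0.0091). The list counted 5 of 24 higher and 3 lower with a median of 0.07, and 11 and 2 after scaling on pan-endothelial genes. Leaving out libraries gave 9 higher and 7 lower without mesentery C. It gave 4 higher and 2 lower without mesentery A, mesentery B or epididymal B, and 4 higher and 3 lower without epididymal A.

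Of 17 genes for leukocyte adhesion and passage, 4 fell and none rose. Jam3, a junctional adhesion molecule, had 2202, 2349 and 2133 against 575, 559.5 and 559.6 (log2 change -1.98, SE 0.16, adjusted p = 0.00017). The sialomucin Podxl had 13118, 14031 and 8776 against 3237, 2918 and 4100.3 (log2 change -1.79, SE 0.24, adjusted p = 0.0021). Cd34 (-0.98, adjusted p = 0.041) and Pecam1 made up the 4. Icam1 (0.14, adjusted p = 0.87) and F11r (0.18, adjusted p = 0.71) overlapped. After scaling on pan-endothelial genes 2 fell and 5 rose. As deposited, the list had 0 higher and 2 lower without mesentery A or mesentery B or epididymal B, and 4 higher and 5 lower without mesentery C.

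Interferon genes were called in 5 of 19 cases: Ifi44 (-2.18, adjusted p = 0.00046), Stat2 (-1.56, adjusted p = 0.0048), Irf7 (-1.09, adjusted p = 0.025) and Isg15 (-0.94, adjusted p = 0.027) were lower in epididymal endothelium and Ifi27l2a was higher, with 1016, 823 and 2140.0 against 7270.2, 9568 and 8164 (log2 change 2.77, SE 0.33, adjusted p = 0.001). The median of the list was -0.62, and 11 genes had epididymal libraries wholly below mesentery against 1 wholly above. After scaling on pan-endothelial genes 2 fell and 2 rose. Single libraries left out gave 1 higher and 2 lower without mesentery A or mesentery B or epididymal B, and 2 higher and 10 lower without mesentery C. Immediate early and heat shock genes, which respond to dissociation, showed 2 lower of 18 (11.1%, near the background), Hspa1a (-1.43, adjusted p = 0.03) and Hspa1b (-1.37, adjusted p = 0.046). The counts were 0 higher and 0 lower without mesentery A or epididymal A or epididymal B, 0 higher and 1 lower without mesentery B, 9 higher and 1 lower without mesentery C, and 3 higher and 1 lower without epididymal C. Fos had 1325, 1365 and 4602 in mesentery and 8851, 7313 and 3739.8 in epididymal libraries (log2 change 1.62, SE 0.49, adjusted p = 0.073). MHC class II genes, read most in epididymal B, had 0 of 10 called by limma, 3 with an unadjusted p under 0.05 and 0 called by edgeR, 1 with groups that did not overlap, and 4 called without epididymal C.

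Genes were also ranked by size of change, with a mean of at least 1000 normalized counts in the higher tissue. The ranking left out only members of the fixed lists of other cell types. RNA of other cell types in the remaining genes was not tested. By that rule the genes lowest in epididymal endothelium were Nkx2-3, Ramp3, Foxf1, Proser2, Lama3, Exoc3l2, Esm1, Ces2e, Rhbdl2 and Car8. Ramp3, which turns the calcitonin receptor-like receptor into an adrenomedullin receptor, fell from 6027, 7346 and 3606 to 187, 117 and 62.3 (log2 change -5.60, SE 0.40, adjusted p = 8.9e-05). Exoc3l2, an exocyst-related gene, fell from 5006, 6083 and 3396 to 301, 244 and 269 (log2 change -4.11, SE 0.23, adjusted p = 2.8e-05). Proser2 fell from 1397, 1571 and 1101 to 65.8, 57.3 and 68.4 (log2 change -4.38, SE 0.23, adjusted p = 2.2e-05). The carboxylesterase Ces2e (-3.89, adjusted p = 0.00092), the rhomboid protease Rhbdl2 (-3.86, adjusted p = 0.00012) and the carbonic anhydrase-related Car8 (-3.76, adjusted p = 0.00031) completed the group.

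The highest by the same rule were C1qtnf3, Osr2, Tcf21, Agt, Slc38a5, Mfap4, Ccl21b, Ccl21d, Aspn and C7. Agt, angiotensinogen, rose from 12.5, 24.2 and 1.41 to 1909, 1020.0 and 603 (log2 change 6.82, SE 0.80, adjusted p = 0.001). The amino acid transporter Slc38a5 had 23.9, 11.6 and 9.86 against 5330.2, 1467 and 271 (log2 change 6.42, SE 0.90, adjusted p = 0.0025). The matrix protein Mfap4 had 19.4, 8.06 and 43.6 against 4578, 1731 and 615 (log2 change 6.39, SE 0.74, adjusted p = 0.00095). The complement protein C7 had 25.1, 26.9 and 31 against 3108, 1425 and 299 (log2 change 5.27, SE 0.70, adjusted p = 0.0019). C1qtnf3, an adipokine-like secreted protein, had 3.42, 1.79 and 0 against 2703, 1049.5 and 172 (log2 change 8.41, SE 1.01, adjusted p = 0.0011). All 5 had their highest epididymal value in library A and their lowest in C, as Pdgfra and the smooth muscle and lymphatic lists did. Aspn, asporin, was even across the epididymal libraries with 1747, 2034 and 2014 against 50.1, 19.7 and 56.3 (log2 change 5.62, SE 0.37, adjusted p = 6.8e-05).

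Without the exclusion of other cell types, and from a mean of at least 100, the lowest were products of the exocrine pancreas: Clps, 4 copies of Amy2a, Prss2, Try4, Sycn, Reg1 and Ctrb1. Clps, colipase, had 79298, 66379 and 9315 in mesentery and 9.4, 0.869 and 0 in epididymal libraries (log2 change -13.73, SE 0.95, adjusted p = 8.4e-05). Reg1 had 4793, 7965 and 2040.1 against 0 in all 3, at least 1845-fold lower on the limit of 3 reads. The acinar list had 31 of 35 genes lower and none higher, and took 1.21% to 4.63% of mesentery and 0.00151% to 0.00573% of epididymal reads, with mesentery C the lowest of its group. The amylase copies had nearly the same value in each library, so that reads cannot be assigned to one of them. Highest by that rule were C1qtnf3, Acsbg1, Osr2, Ajap1, Hbb-bs, Tspan11, Tcf21, Hbb-bt, Plcxd3 and Agt. Haemoglobin genes, with Hbb-bs at 116, 55.6 and 95.7 against 12532, 15398 and 12039 (log2 change 7.26, SE 0.27, adjusted p = 2.4e-06), are near-identical copies of one another whose reads cannot be assigned with certainty. They belonged to an erythroid list with 5 of 6 genes higher that took 0.355% to 0.372% of epididymal and 0.00237% to 0.00497% of mesentery reads after red cell lysis of both. Smooth muscle genes were higher in 6 of 11 cases (Acta2 4.79, adjusted p = 0.0032). Macrophage genes were higher in 5 of 16 (Csf1r 4.64, adjusted p = 0.007), but in 1 by edgeR on the recovered reads, in 1 without mesentery A, in 1 without mesentery B and in none without epididymal A or B.

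**Figure D3:**
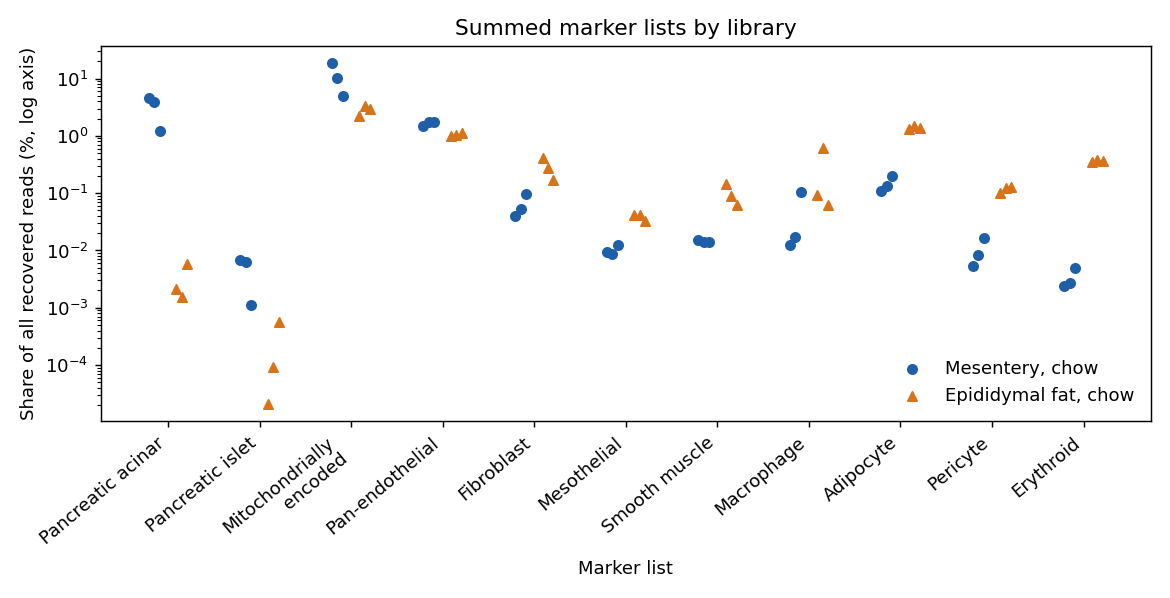
Summed reads of 11 marker lists as a percentage of all recovered reads in each library, on a log axis. Pancreatic acinar genes (1.21% to 4.63%) and islet genes (0.00113% to 0.00674%) lie higher in mesentery, while adipocyte, pericyte and erythroid genes lie higher in all 3 epididymal libraries.

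The same tissue contrast was available in 6 further libraries from mice on the high fat diet, which share no sample with the chow contrast. In a fit over all 12 libraries, whose spread includes the chow libraries, 1840 genes (8.31%) passed for the high fat contrast. Of them, 1029 were among the 2101 called from the chow libraries alone, which is 49% of those chow calls and 55.9% of the high fat calls. The calls of the 2 diets thus come from unlike fits, and the fit over all 12 libraries called 2844 genes on chow. All 1029 kept their direction. Of the 2101 chow calls, 2053 had the same sign on high fat. Nkx2-3 differed by -9.43 on high fat, Plvap by -4.36 and Ramp3 by -6.29, close to their chow values. Ehd4, Flt1, Kdr, Bmpr2 and Smad6 passed on high fat too. Several genes higher in epididymal endothelium had smaller high fat values: Pparg 0.71 (adjusted p = 0.054), Cd36 1.64 (adjusted p = 0.012) and Cldn5 2.50 (adjusted p = 0.006), against 1.99, 2.59 and 4.25 on chow. All 12 pan-endothelial calls and 10 of 13 positional calls also passed on high fat, as did 9 of 9 fibroblast, 5 of 5 macrophage, 5 of 5 erythroid, 30 of 31 acinar, 5 of 8 pericyte, 4 of 6 smooth muscle and 3 of 6 mesothelial calls. None of the 13 adipocyte calls did, of which Cfd, Pck1, Car3 and Nnat had values below 0 on high fat. Aplnr (-0.10) and Tmem252 (0.10) likewise changed sign without passing. When the difference between the diets was itself tested, 1 gene of 22145 (0.00452%) passed, Kcnj8, and 1043 had an unadjusted p under 0.05, so the smaller high fat values of the other genes are not shown to differ from chow.

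**Figure D4:**
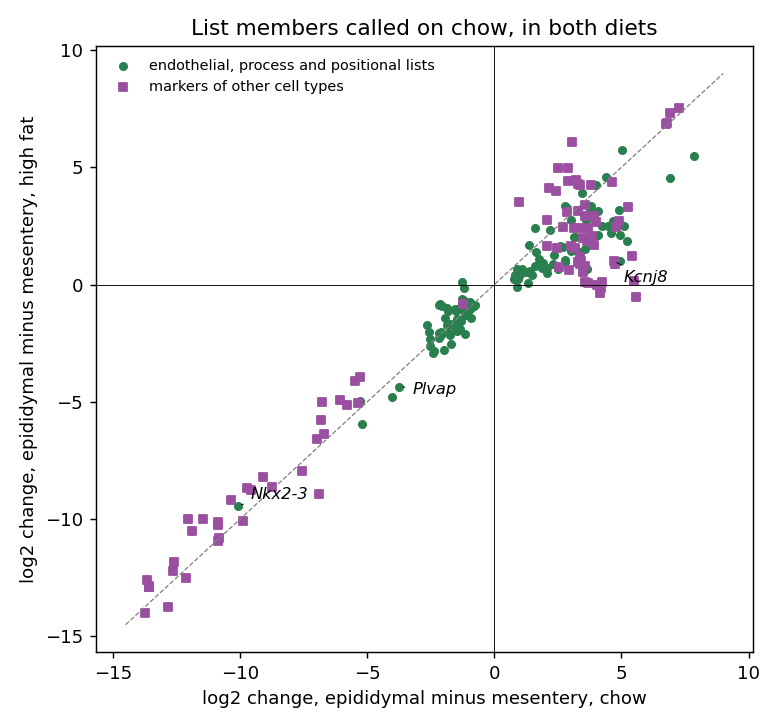
Each point is 1 of the 220 list members called on chow, placed by its log2 tissue difference on chow (horizontal) and on high fat (vertical), with markers of other cell types as squares and a dashed line of equality. Of these, 214 lie on the same side of 0 on both diets.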

How the data were processed

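RNA was sequenced from sorted endothelial cells of 4 groups of 3 libraries, and the 6 chow libraries are compared here. The authors deposited 1 table of normalized read counts (signal values, reads divided by a size factor) for 27825 genes, 20418 of them with a symbol, none with fewer than 51 reads in total. The submitters' processing notes name STAR 2.7.9a, featureCounts, Subread, DESeq2 1.34.0 and the build mm39, without their roles. In every library 100% of values were whole multiples of 1 step (relative tolerance 1e-06), from which reads were recovered. The reciprocals of the steps equal median-of-ratios size factors.

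Genes whose 6 chow values averaged 10 or more were tested with limma 3.58.1 (R 4.3.3), trended, on log2(normalized count + 1), by tissue alone, two-sided, with Benjamini-Hochberg adjustment over all genes tested and a threshold of 0.05. All adjusted p-values in the text come from that fit unless another tool is named. A fold change on this scale understates the change of low genes. Lists are described by counts and medians without a test of the list. edgeR 4.0.16 and DESeq2 1.42.0 on recovered reads were alternatives, and edgeR called 1522 genes. A fit over all 12 libraries gave the high fat values and the test of the difference between diets. The scripts were tested on simulated data.

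Genes named by size were the 10 highest and 10 lowest with groups that did not overlap, from a mean of at least 100, and again from 1000 without members of the fixed lists of other cell types. The members and lists were chosen with earlier results of these data known. Promoter windows came from RefSeq for GRCm38.p6.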

Additional observations from a re-analysis of the deposited data

Results flagged for a closer look

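Kcnj8, a subunit of a potassium channel of pericytes that closes with ATP, was the 1 gene that passed when the difference in tissue effect between the diets was tested. On chow it had 80.8, 102 and 144 normalized counts in mesentery A, B and C and 2519, 2568 and 3247 in the epididymal libraries (log2 change 4.69, SE 0.25, adjusted p = 2.2e-05), with groups that did not overlap. On high fat the tissue difference was 1.01, so that the high fat difference minus the chow difference was -3.68 (SE 0.35, adjusted p = 0.0022, limma over 12 libraries). The adjusted p was 0.01 with the shared number as a replicate block, 0.0021 with a pseudocount of 5 and 0.012 by edgeR. The list of 9 pericyte markers, which includes Kcnj8 itself, had a median log2 tissue difference of 3.48 on chow and 2.07 on high fat. None of the other markers passed the test between diets, and the part of pericyte RNA in the Kcnj8 result was not tested.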

How the results depend on the processing

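The 2101 genes kept their direction under every alternative in which they were tested, and the number called moved with the libraries. In limma with libraries left out, or with another pseudocount or filter, the direction was bound to hold. The reason is that the groups of every called gene did not overlap. The limma fits with the number as a block or as a term return the same change as the main fit. Leaving out 1 library gave 711 to 3468 calls. Leaving out both libraries of letter A, B or C gave 282, 521 and 3295, and edgeR on letters A and B alone, added after seeing the data, gave 5005. Scaling on pan-endothelial genes gave 5916, DESeq2 3318 (16813 genes tested) and a term for number 87 against 50 and 51 gave 3901. The higher share of calls, 58.2%, was 69.3% without mesentery A, 69.5% without mesentery B, 69.2% after trimmed-mean scaling and 93.1% after scaling on pan-endothelial genes. The cause of these moves was not tested.

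Same-numbered libraries did not all deviate together from their group means: the correlation was 0.058 for letter A, 0.55 for B and 0.61 for C, and mesentery B correlated with epididymal A at 0.53, so not every library correlated best with its own number. With the number as a replicate block 2918 genes were called, 1975 by edgeR with that block and 2824 over all 12 libraries. Of 50 genes given with values and not called, 10 passed with the block: Fabp5, Gata2, Glycam1, Hey1, Hoxc9, Id3, Klf2, Notch4, Vcam1 and Vwf. The difference between diets had 2 genes called with the block against 1 without it.

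Of the 156 called genes given with values, 126 passed by edgeR, 133 after scaling on pan-endothelial genes and 147 without both libraries of letter C. Ednrb (0.56), Lipe (0.61) and Tcf15 (0.58), slightly below 0 and not called, passed as higher after scaling on pan-endothelial genes. Other uncalled genes passed as higher there too, among them Fabp4 (2.33), Gpihbp1 (1.70) and Fabp5 (1.74). Low read numbers kept 5680 genes, with a mean under 10, out of the tests.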

Other observations

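Some further gene groups were chosen after their values were seen, and are given as description. The adrenomedullin system, a vasodilator peptide with a receptor built from Calcrl and a partner protein, had its ligand higher and 1 partner, Ramp3, lower in epididymal endothelium. Adm, the peptide, had 61.5, 65.4 and 403 normalized counts in mesentery and 1862, 1911 and 1497 in epididymal libraries (log2 change 3.88, SE 0.61, adjusted p = 0.0048), opposite to Ramp3. Calcrl (-0.61, adjusted p = 0.15), Ramp2 (0.35, adjusted p = 0.4) and Ramp1 (1.59, adjusted p = 0.11) did not pass, although the 3 epididymal values of Calcrl lay below those of mesentery. Among insulin-like growth factor genes, the binding protein Igfbp3 fell from 40568, 41797 and 26770.1 to 4737, 3857 and 2419 (log2 change -3.33, SE 0.30, adjusted p = 0.00028) and Igfbp7 from 104708, 89479 and 67363 to 36873, 32350.4 and 24202 (log2 change -1.48, SE 0.34, adjusted p = 0.026). Igf1, the ligand, had 362, 201 and 570.2 against 3241, 2062 and 1196 (log2 change 2.53, SE 0.43, adjusted p = 0.0066), with the order of epididymal libraries seen for Pdgfra.

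Enzymes that make retinoic acid were higher in epididymal endothelium. Aldh1a1 had 134, 98.6 and 151 against 3300.3, 1994 and 989.6 (log2 change 3.88, SE 0.40, adjusted p = 0.00046) and Aldh1a3 had 20.5, 26.9 and 5.63 against 1101, 566 and 85.8 (log2 change 4.58, SE 0.91, adjusted p = 0.014), again highest in library A and lowest in C. The receptor Rarg was lower, with 226, 345 and 289 against 824, 841 and 704 (log2 change -1.48, SE 0.22, adjusted p = 0.0038). Fibroblast markers shared that order of libraries, as did the smooth muscle and lymphatic lists. The part of RNA of these cell types in the Igf1 and Aldh1a values was not tested.

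Among potassium channels picked for their values, in which Kcnn4 given above was higher, Kcnk5 fell from 605, 769 and 618 to 32.1, 14.8 and 9.19 (log2 change -5.24, SE 0.46, adjusted p = 0.00022) and Kcnq1 from 486, 560.0 and 519.5 to 143, 145 and 111 (log2 change -1.97, SE 0.23, adjusted p = 0.001). The pancreatic acinar share of 1.21% to 4.63% in mesentery libraries stands beside these values, and its part in them was not tested. Among claudins other than Cldn5, Cldn1 fell from 225, 211 and 579 to 44.6, 53 and 14.3 (log2 change -3.17, SE 0.58, adjusted p = 0.0098) and Cldn10 had 29.6, 19.7 and 2.82 against 305, 202 and 71.5 (log2 change 3.62, SE 0.87, adjusted p = 0.032).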
